A study of Homo sapiens with 6 samples.

Results

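Histone genes encode the proteins around which DNA is wound, and their expression was examined here in Kasumi-1 cells, an acute myeloid leukemia line with the t(8;21) translocation, which joins RUNX1 to RUNX1T1. The genes were chosen by name alone. They are the protein-coding genes of GENCODE release 29 whose older symbol begins with HIST1H to HIST4H, H1F, H2AF, H2BF or H3F. The deposited expression table holds 74 of them among 32364 genes, namely 60 replicative genes with HIST symbols and 14 variant and linker genes with the other symbols. GENCODE 29 has 91 genes of these names, and the other 17 were not analysed here. Messenger RNA was sequenced from 3 control libraries and from 3 libraries of cells incubated with 0.5 µM I13, an inhibitor of histone deacetylases, for 48 h. The methods describe controls that received the solvent dimethyl sulfoxide at the concentration used for I13, and all 6 libraries come from 1 cell line without a transgene or a knockout. The question was whether I13 altered the expression of replicative histone genes differently from that of variant and linker genes.

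Histones H2A, H2B, H3 and H4 form the nucleosome core, and H1 is the linker histone that binds DNA between cores. Replicative histone genes lie in clusters and are transcribed mainly in S phase, when new DNA has to be packaged, and most of their mRNAs end in a short stem-loop bound by SLBP rather than in a poly(A) tail. Variant genes such as H2AFZ and H3F3B are expressed throughout the cell cycle as polyadenylated mRNAs, and their products are placed into chromatin by dedicated chaperones. The libraries were prepared with a stranded mRNA kit that captures poly(A) tails. Histone levels in these libraries are therefore levels of captured transcripts, and in bulk RNA fewer cells that express a gene and less RNA per cell cannot be told apart.

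The stem-loop that ends replicative histone mRNAs is shown first because the annotated transcripts of the more highly expressed genes differ in how far they run beyond it. Each line gives 26 bases of the mRNA strand from 5′ to 3′, read from GENCODE 29 transcripts on GRCh38, and the 16 bases in capitals are the stem-loop, whose first 6 and last 6 bases are complementary.
HIST1H2AC: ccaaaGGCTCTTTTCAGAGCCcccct
HIST1H2BC: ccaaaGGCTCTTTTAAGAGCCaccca
HIST1H2BD: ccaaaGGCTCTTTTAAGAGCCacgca
HIST2H2BE: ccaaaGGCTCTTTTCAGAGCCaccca
HIST1H4I: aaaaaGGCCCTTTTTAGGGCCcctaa
H2AFX: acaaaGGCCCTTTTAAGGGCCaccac
The stem-loop of HIST1H2AC lies at chr6:26124669-26124684 on the plus strand, and its transcript runs 1128 bases past it. That of HIST2H2BE, at chr1:149886188-149886203 on the minus strand, is followed by 1729 bases. For HIST1H2BC, at chr6:26123472-26123487 on the minus strand, 116 bases follow, and for HIST1H2BD, at chr6:26158587-26158602 on the plus strand, 39 bases follow. HIST1H4I has its stem-loop at chr6:27139654-27139669 on the plus strand with 212 bases after it. H2AFX, at chr11:119094898-119094913 on the minus strand, was the only variant or linker gene with the stem-loop, and 1044 bases of its transcript follow it. Searched as GGNNNTTTNNANNNCC with complementary arms, the stem-loop occurred in 56 of 19684 protein-coding genes (0.284%), and 30 of the 56 were among the 74 histone genes studied here. The 26 other genes were not sorted further, so the 17 histone genes that were not analysed may be among them. The remaining 31 of the 60 replicative genes had no match in their annotated transcripts, and 25 of the 60 are annotated as coding sequence only, and no match says only that these letters are not in the annotated transcript.

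Expression is given as FPKM, the fragments on a gene scaled to the length of its exons and to the total of mapped fragments. The fragments behind each value were recovered from the exon lengths, and the libraries held between 15281052 and 17221345 fragments. Control replicate 3 and I13 replicate 2 stood apart from the other 4 libraries on the first principal component of 4133 well-expressed genes, which carried 43.3% of the variance, so results that rest on them are given with and without this pair. All 7 markers of Kasumi-1 cells, among them MPO, KIT and RUNX1T1, were expressed, from 12.5 to 12450 FPKM. Of the markers of other cell types, CD3G, COL1A1 and COL1A2 were at 0 in every library, and CD3E, HBA1 and KRT8 were at most 0.145 FPKM. The B cell marker CD79A lay between 1.24 and 2.55 FPKM and the epithelial marker EPCAM between 20.8 and 26.5 FPKM, with overlapping groups for both. The T cell gene CD3D lay between 0.313 and 0.376 FPKM in the control and between 0.129 and 0.141 FPKM in the I13 libraries, and its part in the histone values was not tested. The legend on these data speaks of repeated independent experiments, but neither it nor the labels tie the 3 libraries of a group to separate cultures, so p-values are taken to measure only the spread between these samples.

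Variant genes made up nearly all of the captured histone mRNA. The summed level of the 14 variant and linker genes was 559.2, 577.7 and 591.6 FPKM in the control libraries and 587.3, 589.7 and 581.7 FPKM in the I13 libraries. The 60 replicative genes together reached 26.9, 27.9 and 35.2 FPKM in control cells and 32.2, 28.8 and 34.0 FPKM in cells incubated with I13. Control and I13 libraries overlapped in both sums, and replicative genes held between 4.59% and 5.62% of the summed histone FPKM. The mean sum of the replicative genes was 30.0 ± 4.54 FPKM (SD, n = 3) without and 31.6 ± 2.64 FPKM (SD, n = 3) with I13, a ratio of 1.06. Counted as fragments, which weights longer genes more, the ratio at equal depth was 0.956, so the direction of the replicative sum depends on the unit. For the variant and linker genes the sums were 576.2 ± 16.3 and 586.2 ± 4.12 FPKM (SD, n = 3 each), a ratio of 1.02. Control replicate 3 had the highest replicative sum, and without it and I13 replicate 2 the replicative ratio was 1.21 and the variant ratio 1.03.

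**Figure D1:**
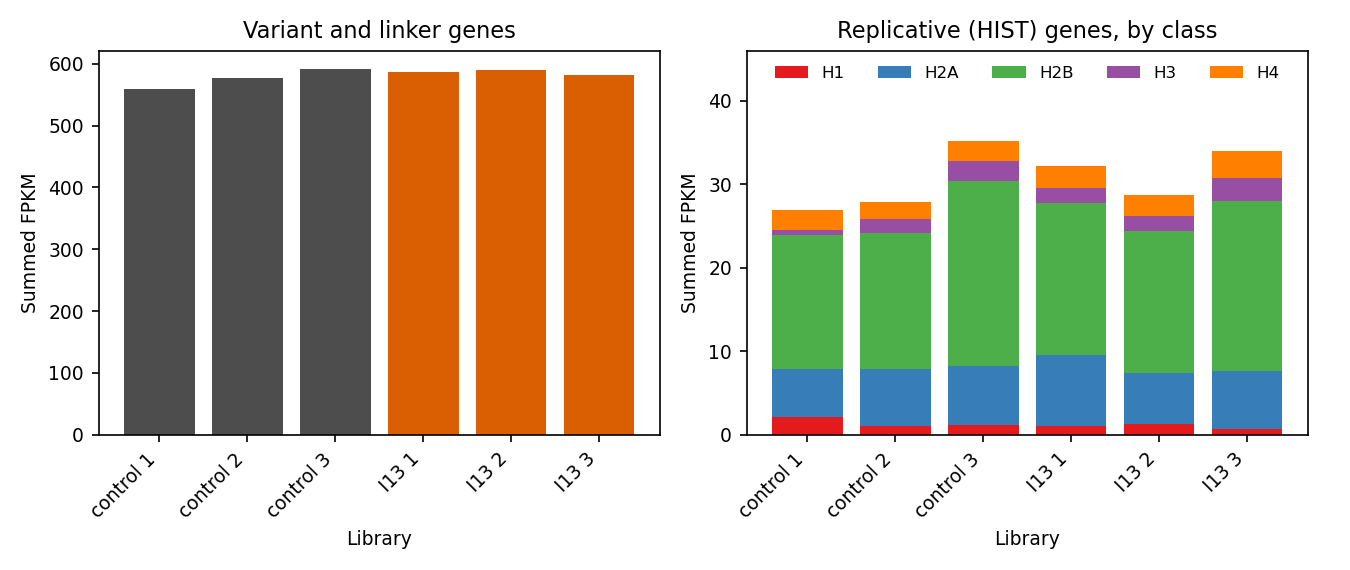
Summed FPKM in each of the 6 libraries, for the 14 variant and linker genes (left) and for the 60 replicative genes split by histone class (right), with both axes starting at 0. The variant sums lie between 559.2 and 591.6 FPKM and the replicative sums between 26.9 and 35.2 FPKM, with H2B as the largest replicative class in every library.

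Fragments were spread in the same unequal way, with 260368 on the variant and linker genes and 2119 on the replicative genes over the 6 libraries. Of the 60 replicative genes, 10 were at 0 in every library, 49 had a mean under 10 fragments, and the median gene had 1.17 fragments per library. The HIST1 cluster on chromosome 6, with 46 genes between 26020490 and 27893843, carried 83.8% of the replicative FPKM, and the 11 HIST2 genes on chromosome 1 carried 15.8%. Both HIST3 genes in the table were at 0 in all libraries, and the single HIST4 gene had a mean of 0.135 FPKM. HIST1H2BK alone accounted for between 47.2% and 52.1% of the replicative FPKM in each library. Its share was smaller in fragments, where the other replicative genes held 1550 of the 2119.

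**Figure D2:**
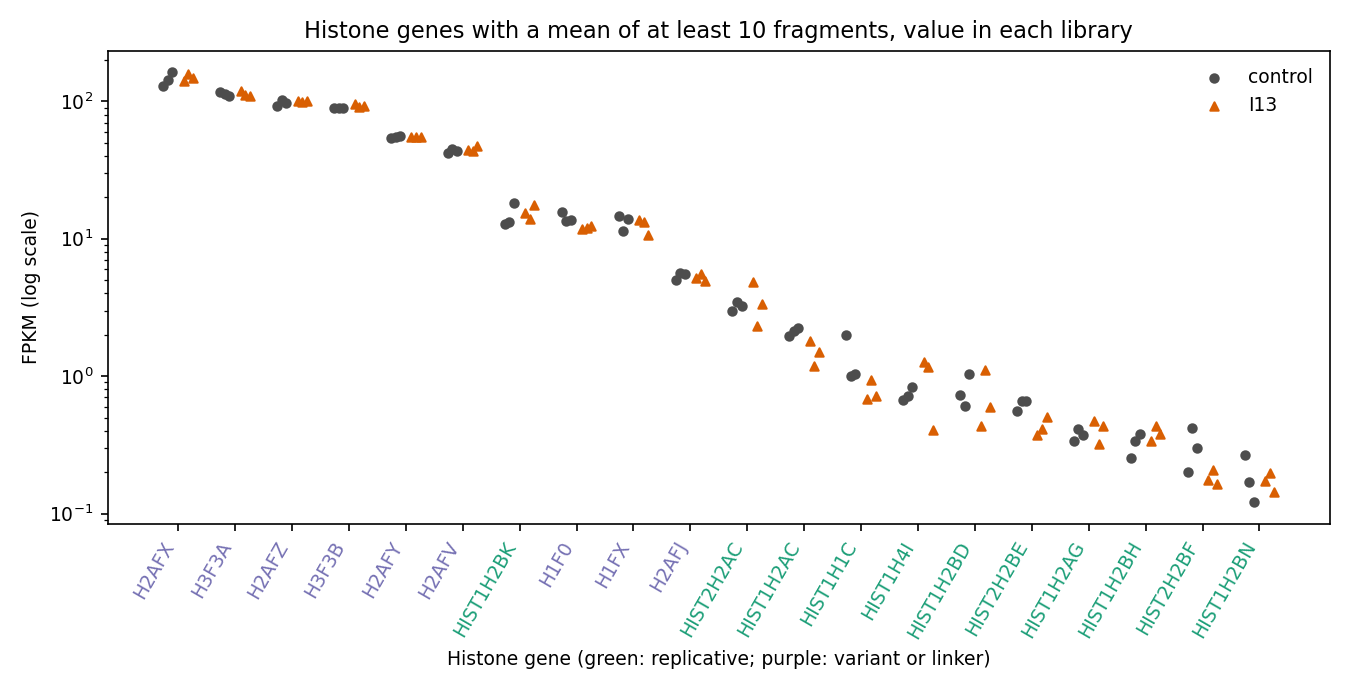
FPKM on a log scale in each control (circles) and I13 (triangles) library for the 20 histone genes whose mean reached 10 fragments, ordered by mean. Of the 10 highest genes 9 are variant or linker genes, and HIST1H2BK is the exception.

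Among the variant and linker genes tested, the order of levels per length was the same in every library except for the neighbours H1F0 and H1FX. This order depends on the annotated exon length, 1614 bases for H2AFX but 17730 for H2AFY. By mean fragments H2AFY (16087), H3F3B (9204) and H3F3A (5856) were above H2AFX (3910). In FPKM H2AFX, the H2A form that is phosphorylated at DNA breaks, was highest with 129.1, 142.7 and 162.8 in the control and 140.8, 159.0 and 148.6 in the I13 libraries. H3F3A, which encodes the replacement histone H3.3, followed with 116.2, 112.5 and 108.8 FPKM without and 119.2, 111.3 and 109.9 FPKM with I13. Values of H2AFZ, the main H2A.Z gene, were 93.0, 102.5 and 98.0 FPKM in control cells and 100.9, 98.9 and 100.7 FPKM in treated cells. The control and I13 ranges overlapped for all 3 genes.
H3F3B, the second gene for H3.3, gave 89.9, 89.9 and 89.2 FPKM in control cells and 95.8, 90.4 and 91.8 FPKM in treated cells, and the control values all lay below the I13 values. The ranges of H2AFZ and H3F3B over the 6 libraries overlapped, but H3F3B was below H2AFZ in 6 of 6 libraries. H2AFY, which encodes macroH2A, lay between 53.8 and 56.0 FPKM, and H2AFV, the second H2A.Z gene, lay between 41.8 and 47.3 FPKM. The linker genes H1F0 and H1FX came next with means of 13.1 and 12.97 FPKM, and H1FX was the lower of them in only 3 of 6 libraries. H2AFJ, an H2A variant, had the lowest mean of the 9 variant and linker genes tested, 5.31 FPKM. The other 5 variant and linker genes had a mean under 0.1 FPKM, with H2AFB3 at 0 in every library and H1FNT, H2AFY2, H2BFS and H3F3C at means of 0.167 to 1.67 fragments.

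I13 and control were compared with limma on log2(FPKM + 0.1) over the 18726 genes whose mean FPKM reached 0.1, a scale that understates fold changes of low genes. At an adjusted p under 0.05 limma called 0 of all genes tested (0%), with 963 genes at an unadjusted p under 0.05 (5.14%). Limma's voom on the fragments of 13814 genes called 5 (0.0362%), and with a term that sets the pair of libraries apart 87 (0.63%), none of them a histone gene. Of the 74 histone genes 42 were tested, and 4 of them had an unadjusted p under 0.05, against the background of 5.14%, with a smallest adjusted p of 0.498. Of these 4, HIST1H2AJ and HIST1H2AL had higher values with I13 (background 2.55%) and HIST1H2AC and H1F0 had lower values (background 2.59%), and none passed the adjusted threshold. By voom 20 histone genes were tested, and HIST1H2AC and H1F0 again had an unadjusted p under 0.05, without the pair term (background 5.36%) and with it (background 10.3%).
The groups did not overlap for 8 of the 42 genes, 4 with higher and 4 with lower values, where 9.52% of all genes tested did not overlap (4.88% higher and 4.64% lower). The I13 libraries were higher for HIST1H2AJ, HIST1H2AL, HIST1H4B and H3F3B, and lower for HIST1H1C, HIST1H2AC, HIST2H2BE and H1F0. HIST1H2AL and HIST1H4B reached the filter on mean FPKM only through the I13 libraries, so only a higher value could be tested. Both carry no weight in the counts of higher genes, at an unadjusted p or without overlap.

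**Figure D3:**
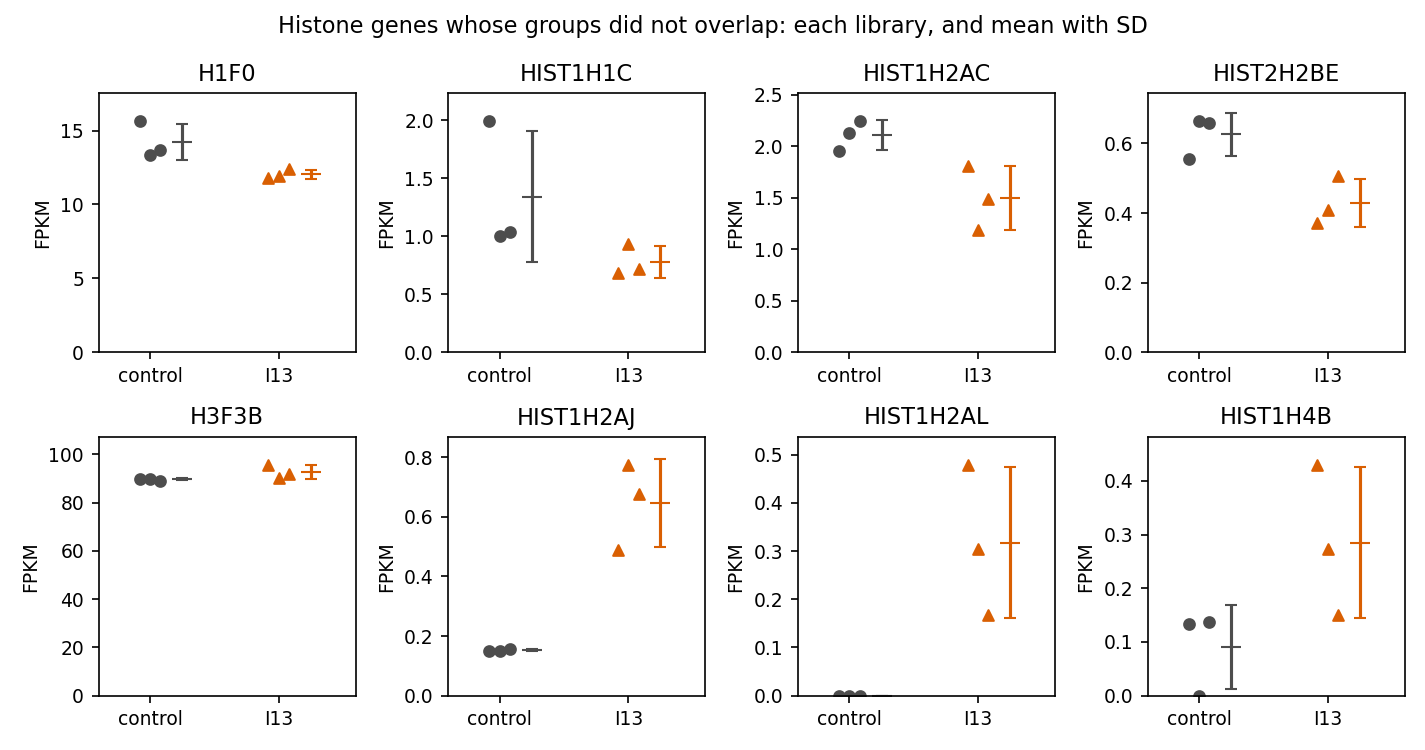
FPKM of the 8 tested histone genes whose control (circles) and I13 (triangles) libraries do not overlap, with the mean and SD of the 3 libraries of each group beside the points and each axis starting at 0. The upper 4 genes are lower and the lower 4 genes are higher with I13, and HIST1H2AL is at 0 in the 3 control libraries.

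The variant and linker genes differed little between control and I13. Of the 9 tested, 6 had a log2 fold change above 0 and 3 below 0, with a median of 0.01 and a range from -0.24 to 0.06, where all genes tested had a median of 0.01. Only H1F0 among the 9 had an unadjusted p under 0.05 (background 5.14%). The 95% interval of the log2 fold change reached from -0.06 to 0.18 for H2AFV, from -0.08 to 0.15 for H2AFZ, from -0.05 to 0.15 for H3F3B and from -0.11 to 0.13 for H3F3A. That of H2AFY, from -0.08 to 0.11, was the narrowest, and that of H1FX, from -0.39 to 0.22, was the widest. For H2AFX it reached from -0.16 to 0.26 and for H2AFJ from -0.24 to 0.16. The summed level of H3F3A and H3F3B was 202.1 ± 4.09 FPKM in control and 206.1 ± 7.67 FPKM in treated cells (SD, n = 3 each), and that of H2AFZ and H2AFV was 141.1 ± 6.28 and 145.4 ± 2.69 FPKM.

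H1F0, which encodes the linker histone H1.0 known from cells that have left the cell cycle, had the lowest fold change among the variant and linker genes tested. It lies on the plus strand of chromosome 22 from 37805093 to 37807436 (ENSG00000189060). Its level was 15.6, 13.4 and 13.7 FPKM in the control libraries and 11.8, 11.9 and 12.4 FPKM in the I13 libraries. The I13 values were all below the control values, and control replicate 1 was the highest. The mean was 14.2 ± 1.23 FPKM (SD, n = 3) without and 12.0 ± 0.315 FPKM (SD, n = 3) with I13. The limma log2 fold change was -0.24 ± 0.07 (standard error), with an adjusted p of 0.875 and an unadjusted p of 0.0138, and voom gave -0.24 with an adjusted p of 0.757. It was -0.26 within the 4 libraries and -0.19 between control replicate 3 and I13 replicate 2, and -0.17 without control replicate 1. H1FX, the other linker gene, was measured at 14.7, 11.4 and 14.0 FPKM in control cells and at 13.8, 13.3 and 10.7 FPKM in treated cells, with overlapping groups and a log2 fold change of -0.09. H1FX overlaps its antisense gene H1FX-AS1, and whether the counting used strand is not stated.

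The replicative genes varied far more between replicates. The median SD within groups on the log2 scale was 0.65 for the 33 replicative genes tested, 0.06 for the 9 variant and linker genes and 0.17 for all genes tested, and 22 of the 33 had a mean under 10 fragments. Their log2 fold changes ran from -1.38 to 1.99 with a median of 0.11, and 19 were above and 14 below 0. Of the 33 genes 3 had an unadjusted p under 0.05 (background 5.14%), 2 higher and 1 lower. The groups did not overlap for 6, 3 in each direction (background 4.88% higher and 4.64% lower). HIST1H2AL, HIST1H4B and 5 other genes reached the filter only through the I13 libraries, where they were high, and 1 gene only through the control libraries. Those that reached the filter only through I13 all had a log2 fold change above 0. The filter therefore raises the median of 0.11 and the count of 19. Among the 25 genes that reached the filter in both groups, 1 was higher (background 2.55%) and 1 lower (background 2.59%) at an unadjusted p under 0.05. Of these 25, 1 was higher (background 4.88%) and 3 lower (background 4.64%) without overlap. The remaining 27 replicative genes were not tested, 10 because they were at 0 and 17 because their mean was under 0.1 FPKM.
The difference between the replicative and the variant median was 0.09, and it changed sign with the filter on low genes. Over the 4 replicative genes with a mean of at least 1 FPKM the median was -0.21, and over the 11 with a mean of at least 10 fragments voom gave -0.05, with 5 genes above and 6 below 0. No direction of the replicative genes as a group can be read from these values.

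**Figure D4:**
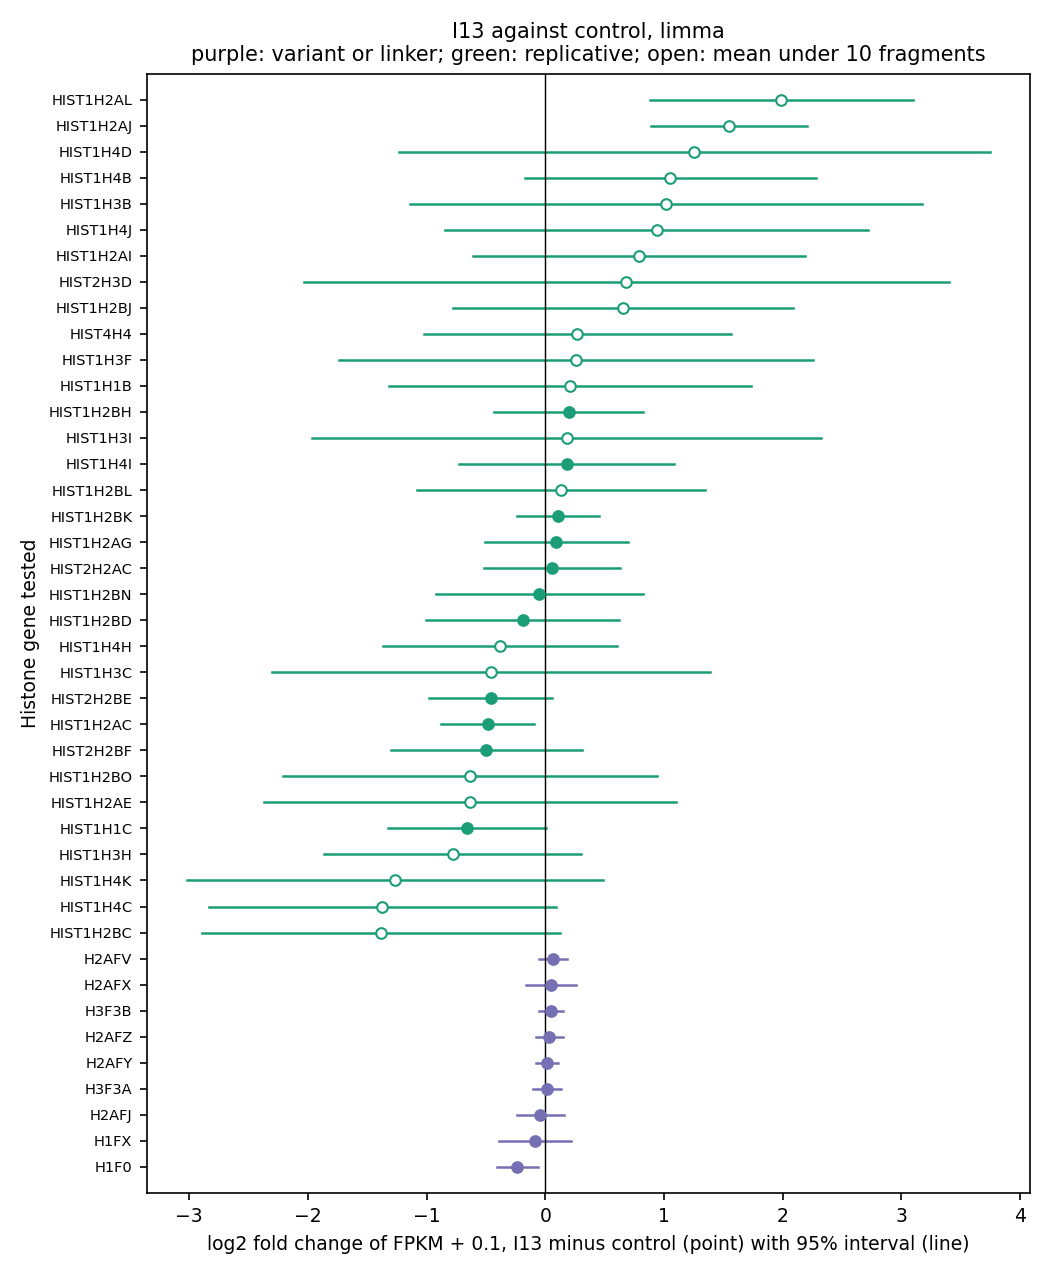
Log2 fold change of FPKM + 0.1 (I13 minus control, points) with its 95% interval (lines) from limma for the 42 histone genes tested, replicative genes in green and variant or linker genes in purple, with open points for genes with a mean under 10 fragments. The replicative values run from -1.38 to 1.99, while the variant and linker values run from -0.24 to 0.06 with short intervals.

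By class, 2 of 4 replicative H1 genes, 7 of 12 H2A genes, 10 of 17 H2B genes, 6 of 13 H3 genes and 8 of 14 H4 genes were tested. The median log2 fold change was -0.23 for H1, 0.09 for H2A, -0.12 for H2B, 0.22 for H3 and 0.22 for H4. Genes that reached the filter only through the I13 libraries raise these medians in every class but H2B. They are HIST1H1B, HIST1H2AL, HIST1H3B, HIST1H3I, HIST1H4B, HIST1H4D and HIST1H4J, while HIST1H4H reached it only through the control libraries. No direction of a class can be read from these medians. The 3 genes with an unadjusted p under 0.05 (background 5.14%) were H2A genes, 2 of them on 15 and 6 fragments in all, and the difference between classes was not tested. Replicative H3 genes summed to 1.59 ± 0.894 FPKM in control and 2.10 ± 0.517 FPKM in treated cells (SD, n = 3 each), far below the H3.3 genes. Replicative H4 summed to 2.23 ± 0.168 and 2.81 ± 0.390 FPKM, with 32 to 50 fragments per library over the 14 genes.

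HIST1H2AC was the replicative gene with the lowest p among those with at least 10 fragments. It encodes H2A and lies on the plus strand of chromosome 6 from 26124145 to 26139116 (ENSG00000180573). Its level was 1.95, 2.13 and 2.24 FPKM in the control libraries, from 56, 61 and 62 fragments, and 1.81, 1.19 and 1.49 FPKM in the I13 libraries, from 48, 33 and 38 fragments. All I13 libraries were below all control libraries, and I13 replicate 2 was the lowest. By limma the log2 fold change was -0.49 ± 0.17 (standard error), with an adjusted p of 0.901 and an unadjusted p of 0.0223. It was -0.30 within the 4 libraries, with an unadjusted p of 0.12, and -0.87 between control replicate 3 and I13 replicate 2. The unadjusted p was also above 0.05 without control replicate 2 (0.0574), control replicate 3 (0.0679) or I13 replicate 2 (0.0546).
HIST1H2BC, an H2B gene on the opposite strand next to HIST1H2AC, was measured at 0.487, 0.489 and 0.724 FPKM in control cells and at 0.527, 0 and 0.157 FPKM in treated cells. The groups overlapped, and the 24 control and 9 I13 fragments gave a ratio of 0.399 with a 95% interval from 0.163 to 0.889 that covers counting error only. Its log2 fold change was -1.38, with an interval from -2.89 to 0.13. It was -0.55 within the 4 libraries and -3.04 between control replicate 3 and I13 replicate 2, the library with 0 fragments, and -2.04 with an unadjusted p of 0.00666 without I13 replicate 1.

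The starts of these 2 genes face each other, so the bases before them are nearly the same stretch read on opposite strands. The 250 bases before the start of HIST1H2AC are shown with those of HIST1H2BK, the replicative gene with the highest FPKM, and of H2AFX, the variant gene with the highest FPKM. They were read from RefSeq on GRCh38.p14, 5′ to 3′ on the gene's strand, and capitals mark ATTTGCAT, CCAAT and TATAAA on either strand.
HIST1H2AC: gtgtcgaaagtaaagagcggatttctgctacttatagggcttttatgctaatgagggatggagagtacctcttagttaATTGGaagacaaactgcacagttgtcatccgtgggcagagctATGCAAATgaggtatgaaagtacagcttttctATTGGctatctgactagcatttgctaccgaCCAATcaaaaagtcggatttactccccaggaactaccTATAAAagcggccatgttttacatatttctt
HIST1H2BK: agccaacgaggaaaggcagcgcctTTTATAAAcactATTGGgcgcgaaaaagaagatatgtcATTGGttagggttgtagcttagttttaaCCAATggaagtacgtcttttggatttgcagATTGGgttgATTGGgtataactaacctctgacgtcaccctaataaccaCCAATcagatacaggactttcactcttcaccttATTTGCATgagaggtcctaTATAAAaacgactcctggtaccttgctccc
H2AFX: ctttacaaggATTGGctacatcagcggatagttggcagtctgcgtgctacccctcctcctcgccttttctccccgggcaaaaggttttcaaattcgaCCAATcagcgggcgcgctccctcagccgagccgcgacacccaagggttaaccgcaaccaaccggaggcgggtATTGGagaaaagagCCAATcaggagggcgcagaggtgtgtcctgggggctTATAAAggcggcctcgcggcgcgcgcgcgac
The window of HIST1H2AC is chr6:26123922-26124171 on the plus strand, and that of HIST1H2BC is chr6:26123927-26124176 on the minus strand. HIST1H2BK is shown at chr6:27146856-27147105 and H2AFX at chr11:119095466-119095715, both on the minus strand. A window of 250 bases before and 50 after the start was found for 62 of the 74 genes. In it the octamer ATTTGCAT, searched on both strands, occurred in 8 of 9 H2A and 14 of 19 H2B promoters, in 0 of 26 promoters of replicative H1, H3 and H4 genes, and in 1.77% of 35116 RefSeq promoters. CCAAT occurred in every H1, H2A, H2B and H3 promoter, in 2 of 12 H4 promoters and in 34.6% of all promoters. The sequence AAACACA, known from H1 promoters, occurred in 4 of 4 H1, 1 of 9 H2A and 2 of 10 H3 promoters, in no H2B or H4 promoter and in 5.64% of all. In the 15 promoters of variant and linker genes the octamer occurred in 1, CCAAT in 11 and AAACACA in 3. A gene with more than 1 annotated start, such as HIST1H2BK, was counted more than once. A match is a description of these letters and not a measured binding site.

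HIST1H2AJ and HIST1H2AL, both H2A genes on chromosome 6, were the 2 histone genes with higher values at an unadjusted p under 0.05, and both rested on few fragments. HIST1H2AJ (ENSG00000276368, 27814354 to 27814740, minus strand) had 1 fragment in every one of the 3 control libraries but 3, 5 and 4 fragments in the I13 libraries, or 0.150, 0.151 and 0.156 against 0.487, 0.774 and 0.676 FPKM. The summed 3 and 12 fragments gave a ratio at equal depth of 4.26, with a 95% interval from 1.15 to 23.5 for counting error only. The limma log2 fold change was 1.54 ± 0.28 (standard error), with an adjusted p of 0.498 and an unadjusted p of 8.14e-04. Of its 50-base sequence words 83.7% also occur in HIST1H2AI, so the counting could have divided fragments between these genes.
HIST1H2AL (ENSG00000276903, 27865355 to 27865747, plus strand) had 0 fragments in the control libraries and 3, 2 and 1 fragments in the I13 libraries. With 3 fragments over the 3 control libraries as the floor, this was at least 2.13-fold higher. It passed the filter on low values only through the I13 libraries, so only a higher value could be tested and its p carries no weight. HIST1H2AL overlaps HIST1H2BN on the same strand. HIST1H4D (0 control and 6 I13 fragments, all in I13 replicate 3) was at the same bound and also passed the filter only through the I13 libraries. Setting the 3 tested replicative genes that were at 0 in the control group at their bounds left the replicative median at 0.11. It could not do otherwise, since these genes lie above the median with either value.

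HIST1H2BK (ENSG00000197903, chromosome 6, 27146418 to 27146798, minus strand) was the only replicative gene at the FPKM level of the linker genes H1F0 and H1FX. This level rests on an exon length of 381 bases. By mean fragments HIST1H2BK (94.8) was below H1F0 (508.5) and H1FX (322.7), whose exons are longer. HIST1H2BK was measured at 12.8, 13.2 and 18.1 FPKM in control cells and at 15.3, 14.0 and 17.7 FPKM in treated cells, from 84 to 114 fragments per library. Control replicate 3 was the highest of the 6 libraries and the groups overlapped. The log2 fold change was 0.11 with a 95% interval from -0.24 to 0.45. It was 0.34 within the 4 libraries, with an unadjusted p of 0.0125, and -0.36 between control replicate 3 and I13 replicate 2, so the direction turned between these sets. The annotated gene holds coding sequence only, and 61.4% of its 50-base words occur in H2BFS.
HIST2H2AC, an H2A gene, was second among replicative genes with 2.98, 3.44 and 3.25 FPKM without and 4.83, 2.31 and 3.36 FPKM with I13. I13 libraries held both its highest and its lowest value. Its log2 fold change of 0.06 had an interval from -0.51 to 0.63 and turned from 0.32 within the 4 libraries to -0.48 between the pair, and to -0.20 without I13 replicate 1, and 30.5% of its words are shared with HIST2H2AA3 and HIST2H2AA4. HIST1H4I, the H4 gene with the highest level, lay at 0.673, 0.721 and 0.840 FPKM in control cells and at 1.26, 1.16 and 0.405 FPKM in treated cells, again with overlap. Its log2 fold change was 0.18, with -0.08 without I13 replicate 1, -0.02 without I13 replicate 2 and 0.64 (unadjusted p = 0.015) without I13 replicate 3. The log2 fold changes of the other genes named for their level were 0.68 for HIST2H3D, -0.78 for HIST1H3H, 0.26 for HIST1H3F, -1.26 for HIST1H4K and 0.21 for HIST1H1B, each with an interval that included 0. HIST2H3D had 2.56 within the 4 libraries (unadjusted p = 0.0281) and -3.06 between the pair, and HIST1H3H had -0.05 and -2.24. HIST1H3F had 0.40 and -0.01, and HIST1H1B had 0.04 and 0.55, with opposite signs of -0.36 and -0.18 without control replicate 2. HIST1H4K had -2.08 without I13 replicate 3 (unadjusted p = 0.00672) and -0.47 without I13 replicate 1. These values moved with single libraries and give no direction. Of the 50-base words of HIST1H4K 100% also occur in HIST1H4J, and 80.4% of those of HIST2H3D occur in other genes. The counting could therefore have divided fragments of these genes too. HIST1H1E, with 1 control and 4 I13 fragments, was not tested. HIST1H4B, with 2 control and 6 I13 fragments, had a log2 fold change of 1.05 and an unadjusted p of 0.0816. It reached the filter only through the I13 libraries, so this p carries no weight.

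A list of 7 replicative genes known to be expressed also as polyadenylated mRNAs held 3 of the 4 replicative genes with a mean of at least 1 FPKM. The list was written from general knowledge but with earlier results of these data known. Its counts, median and sums are therefore description only and lend no support to a pattern. All 7 were tested, 2 with a log2 fold change above and 5 below 0, with a median of -0.46 beside 0.01 for all genes tested. Of the 7, HIST1H2AC had an unadjusted p under 0.05 (background 5.14%), and for 3 the I13 values were all below the control values (background 4.64%).
HIST1H1C, the H1.2 linker gene, was among these 3, with 1.99, 0.998 and 1.03 FPKM in control cells and 0.685, 0.934 and 0.714 FPKM in treated cells. Control replicate 1 was about 2 times the other control libraries, and the closest values of the groups, 0.998 and 0.934 FPKM, came from 11 and 10 fragments. By limma the log2 fold change was -0.66 ± 0.28 (standard error), with an adjusted p of 0.947 and an unadjusted p of 0.0516. It was -0.92 within the 4 libraries and -0.13 between control replicate 3 and I13 replicate 2, and -0.36 without control replicate 1 (unadjusted p = 0.149). HIST2H2BE, an H2B gene, was measured at 0.556, 0.664 and 0.660 FPKM without and 0.372, 0.410 and 0.507 FPKM with I13. Its log2 fold change of -0.46 had an interval from -0.98 to 0.06 and kept its sign within the 4 libraries (-0.40) and between the pair (-0.58). The H2B genes HIST1H2BD and HIST1H2BJ overlapped between groups, with log2 fold changes of -0.19 and 0.65, which were -0.32 and 0.07 within the 4 libraries and 0.08 and 1.82 between the pair.
Over the 7 genes the fragments summed to 205, 200 and 236 in the control and 178, 167 and 176 in the I13 libraries, without overlap, at total depths that were 0.94 times as large with I13. The summed FPKM, 20.2 ± 3.10 in control and 19.5 ± 1.67 in treated cells (SD, n = 3 each), overlapped, since HIST1H2BK carries most of it.

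Replicative genes were also grouped by the annotated end of their transcripts. In 20 genes a transcript runs at least 100 bases past the stem-loop, and 10 of them were tested, with 3 log2 fold changes above and 7 below 0 and a median of -0.42. In 9 genes it ends within 100 bases, and of the 6 tested 4 were above and 2 below 0, with a median of 0.46. Of the 31 genes without a match 17 were tested, 12 above and 5 below 0, with a median of 0.18. Of the tested genes 4 of 10, 5 of 6 and 13 of 17, in this order, had a mean under 10 fragments. HIST1H4B and HIST1H4J of the 6, and HIST1H1B, HIST1H2AL, HIST1H3B, HIST1H3I and HIST1H4D of the 17, reached the filter only through the I13 libraries. All of them lay above 0, so the filter raises the medians of 0.46 and 0.18. HIST1H4H, of the 10, reached it only through the control libraries. The genes with the poly(A) signal AATAAA in the last 50 bases of a transcript had a median of -0.19 over 11 tested genes, and those without had 0.18 over 22. Of the genes that reached the filter only through I13, HIST1H4J has this signal and the others do not. The differences between these groups were not tested, because genes of a group are not replicates of a condition.

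**Figure D5:**
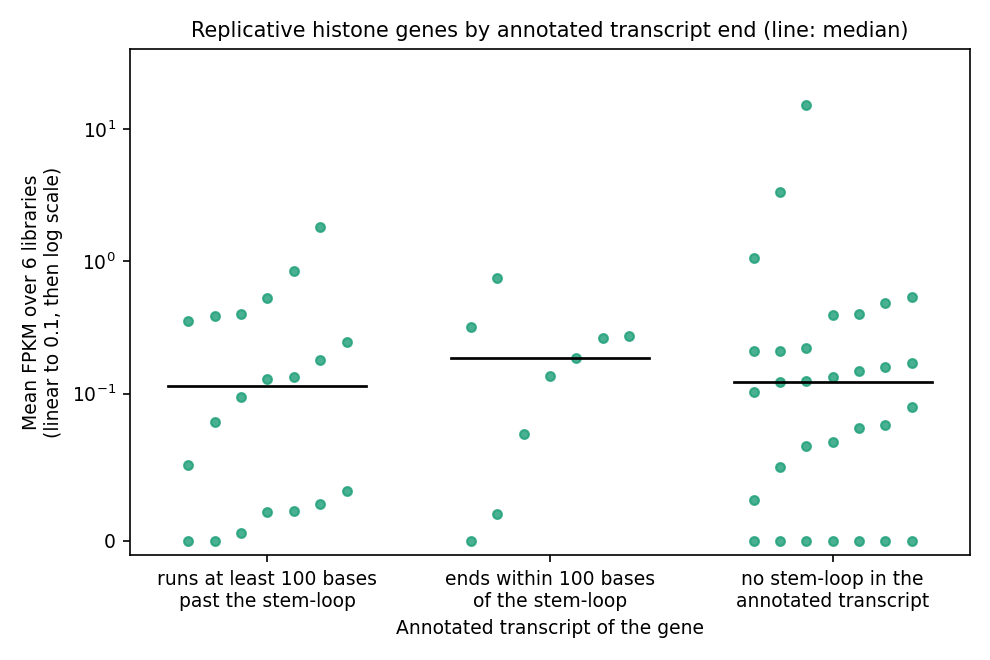
Mean FPKM over 6 libraries of each of the 60 replicative genes (points; linear to 0.1, then a log scale) by the annotated end of the transcript, with the median as a line. Genes at 0 occur in all 3 groups, and the highest value, that of HIST1H2BK, belongs to a gene with no stem-loop in its annotated transcript.

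The genes that make and place histones were expressed throughout. In a list of 20 genes for histone transcription and 3′ end processing, 13 log2 fold changes were above and 7 below 0, with a median of 0.01. None had an unadjusted p under 0.05 by limma (background 5.14%) and 1 had by voom (background 5.36%). That gene was SLBP, which binds the stem-loop. It was measured at 44.2, 45.2 and 37.9 FPKM in control cells and at 49.7, 46.3 and 46.8 FPKM in treated cells, so the groups did not overlap and control replicate 3 was the lowest. Its log2 fold change was 0.17 (standard error 0.07, adjusted p = 0.947 by limma and 0.900 by voom), and 0.11 within the 4 libraries. NPAT and CASP8AP2, which act at histone loci in S phase, had log2 fold changes of 0.04 and 0.07.
Of 27 histone chaperone genes 26 were tested, 12 above and 14 below 0 with a median of 0.00, and none had an unadjusted p under 0.05. The log2 fold changes were 0.13 for ASF1B, 0.04 for ASF1A, 0.09 for CHAF1A and 0.02 for CHAF1B, which handle newly made H3 and H4. They were -0.02 for HIRA and -0.03 for DAXX, which place H3.3, and 0.07 for NASP, which holds free H3 and H4.
In a list of 43 S phase genes, in which histone demand is known to be high, 39 log2 fold changes were above and 4 below 0, with a median of 0.08 beside 0.01 for all genes tested, where 51.8% were above 0. Of the 43, PCNA and RPA2 had an unadjusted p under 0.05 (4.65% of the list, background 5.14%), both higher, and none passed the adjusted threshold. The groups did not overlap for 7 of the 43, all higher, where 4.88% of all genes tested did so. Between control replicate 3 and I13 replicate 2 alone the log2 fold changes lay on both sides of 0, from -0.11 for HELLS to 0.29 for SLBP. The count of 39 therefore rests in large part on the other 4 libraries. The list was chosen with earlier results of these data known, and its genes are not replicates of a condition. Whether cell cycle position has a part in the histone values was not tested.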

How the data were processed

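Libraries of Kasumi-1 cells (3 control, 3 I13, 48 h) were made with a TruSeq Stranded mRNA kit, per the labels. For each Ensembl gene and library the authors deposited an FPKM value. The submitters' processing notes name Trimmomatic, HISAT2, Cufflinks, HTSeq and hg38, while versions, annotation and strand setting are not stated. Deposited FPKM values were used without further scaling.

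Fragments were recovered from FPKM with GENCODE 29 exon lengths, which came out whole (to within 0.01) in every library for 25773 of 27002 genes (95.4%). Depth was 15281052 to 17221345 fragments, and few fragments limit the precision of low genes. Ratios of fragments have exact intervals at 95% for counting error, and the floor for a group at 0 was 3 fragments.

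Differences in log2(FPKM + 0.1) were fitted by limma 3.58.1 (R 4.3.3) with a variance trend and no block, two-sided, over 18726 genes whose mean FPKM reached 0.1, with Benjamini-Hochberg adjustment. Tested on simulated data for I13 against control, limma called 136 of 200 genes changed 2-fold and 30 unchanged genes among 18346, and voom called 183 and 11 among 13811. The simulation gave every gene the same fixed spread between replicates and set no pair of libraries apart. Its changed genes had at least 10 expected fragments. It therefore does not give the sensitivity for the replicative genes, most of which had fewer. Sums, sequence searches and figures were made in Python 3.11.15.

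Alternatives were a replicate block, a minimum mean of 1 FPKM or none, pseudocounts of 0.01 and 1, quantile or median scaling, limma with robust variances or without trend, voom where the mean reached 10 fragments, voom with a pair term for control replicate 3 and I13 replicate 2, and libraries left out. Named genes are variant and linker genes with a mean of at least 1 FPKM, the 3 genes with the highest mean in each HIST class, members with an unadjusted p under 0.05, the polyadenylated list, and 10 processing and chaperone genes. HIST1H4B, H3F3C, H2AFB3, H1FNT, H2AFY2, H2BFS, PCNA and RPA2 were named after their values were seen. The members, the lists and the alternatives were chosen with earlier results of these data known. Some marker genes are not reported here.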

Additional observations from a re-analysis of the deposited data

How the results depend on the processing

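At an adjusted p under 0.05 the number of genes called was 9 by limma without a trend, 5 by voom and 87 by voom with the pair term. The other settings with all 6 libraries called 0, and 0 to 2 were called when libraries were left out in turn. The replicative median (0.11) was -0.21 at a minimum mean of 1 FPKM, -0.0545 by voom, -0.0794 by voom with the pair term and from -0.0705 to 0.0656 with libraries left out singly or as the pair. The replicative minus variant median (0.09) was -0.23, -0.0681 and -0.0929 in the same settings and from -0.0836 to 0.0371 with libraries left out, so its sign depended on the filter and on single libraries, and voom, which also tests fewer genes, turned it too. The variant median then ranged from -0.0077 to 0.0289. Replicative genes with an unadjusted p under 0.05 (3) numbered 1 at a minimum mean of 1 FPKM, by voom and by voom with the pair term, which test 4, 11 and 11 genes, and 2 to 7 with libraries left out, 7 without I13 replicate 3. H1F0 kept its direction and its unadjusted p under 0.05 in 18 of 18 alternatives, HIST1H2AC in 14 of 18. Over 36 named genes, 26 of 609 alternatives, in 17 genes, gave the opposite sign, none in a gene with an unadjusted p under 0.05 over all libraries, while 15 brought a p under 0.05 and 4, all in HIST1H2AC, lost it. Labels give both groups replicate numbers 1 to 3, and same-numbered samples deviated together in 1 of 3 pairs (correlations 0.32, -0.38 and -0.30). Control replicate 3 and I13 replicate 2, which stand apart, carry different numbers and weigh on all of these correlations. The values therefore cannot decide whether the numbers pair the samples, and the main fit used no pairing. With the replicate block 0 genes passed the adjusted p, 4 replicative genes had an unadjusted p under 0.05 and the replicative median was 0.11. Few fragments limit the replicative genes, 49 of which had a mean under 10.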
